A study of Homo sapiens with 3 samples.

Results

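The cytosolic ribosomal protein genes encode the proteins of the ribosome that translates nuclear messages. They were taken as every gene whose symbol is RPL or RPS and a number, with an optional A, X, L or L1 at the end, together with RPLP0, RPLP1, RPLP2 and RPSA. This rule found 84 of the 61533 listed genes. Of these, 77 were core members, 31 in the small and 46 in the large subunit. The other 7 were paralogs whose symbols end in L or L1, namely RPL3L, RPL7L1, RPL10L, RPL22L1, RPL26L1, RPL39L and RPS27L. Ribosomal proteins with other kinds of symbol, such as the one made from FAU, were not members.

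Polyadenylated RNA came from Hep3B, an established human hepatoma line labelled wild type, in DMEM with 10% fetal bovine serum and antibiotics. Cells were kept in 1% oxygen with sodium oxamate, in 1% oxygen without it (hypoxia), or in 20% oxygen (normoxia), and both cultures in 1% oxygen were held in a chamber flushed with mixed gas. Oxamate inhibits lactate dehydrogenase, the enzyme that turns pyruvate into lactate, and the labels used here give no dose. The design text gives 48 hours after naming oxamate, without saying whether the time holds for every culture. Each condition had 1 library, so differences carry no replicate check, and no test across samples or p-value is given.

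Ribosomal proteins are needed in fixed proportion, since each ribosome takes up its own set together with ribosomal RNA, and surplus copies are degraded. Their messages are short, stable and among the most abundant of a growing cell. Most begin with a 5′ terminal oligopyrimidine (TOP) tract, a C followed by a run of C and T, through which the kinase mTOR and the cap-binding protein LARP1 control their translation. Low oxygen is known to reduce mTOR signalling and ribosome production in many cultured cells.

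The libraries held 24826365 (hypoxia with oxamate), 26309340 (hypoxia) and 27412147 (normoxia) fragments assigned to genes. Ratios compare CPM, in which the fragments of a gene are scaled to a library total adjusted with a trimmed mean of M values. Each ratio has a 95% exact conditional binomial interval, which covers counting error only. A gene counted as measured in a comparison with at least 50 fragments in either library. All 6 listed genes of the response to low oxygen, among them CA9 and NDRG1, were at least 2-fold higher in hypoxia than in normoxia. All 9 hepatocyte markers exceeded 1 CPM in every library. They summed to 11632 CPM in hypoxia with oxamate, 20214 in hypoxia and 31461 in normoxia, with ALB the largest in each. In hypoxia against normoxia 8 of the 9 had a ratio under 1 (56.7% of all measured genes), while TF had a ratio of 3.38. Of the 10 markers of blood, endothelium and fibroblasts, HBB and ACTA2 were at 0 in every library, and PTPRC and CDH5 stayed under 1 CPM. The endothelial list summed to 20.1, 8.35 and 1.35 CPM in the same order, nearly all of it PECAM1, the blood list to 60.3, 31.8 and 37.7 CPM, nearly all of it LYZ, and the fibroblast list to 6.44, 20.5 and 15.1 CPM. The list for biliary and other epithelium (KRT7, KRT19 and EPCAM) was higher, at 668, 699 and 1062 CPM, nearly all of it EPCAM and KRT19. The part of these markers in the results for ribosomal proteins was not tested.

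Together the 77 core members took 3.79% of fragments in hypoxia with oxamate (Wilson interval 3.78 to 3.80), 3.35% in hypoxia (3.34 to 3.35) and 3.80% in normoxia (3.79 to 3.81). Their share was thus lowest in hypoxia, and the other libraries had nearly the same share. The small subunit took 1.38%, 1.20% and 1.40%, and the large subunit 2.41%, 2.15% and 2.40%, in hypoxia with oxamate, hypoxia and normoxia. Transcripts of the mitochondrial chromosome took 7.21%, 5.80% and 8.46% in the same order, so their share was lowest in hypoxia as well. Without them the core share was 4.08%, 3.55% and 4.15%. In RNA from a whole culture, fewer cells of a type and less RNA per cell cannot be told apart.

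Within a library the core members spanned a wide range of levels per length. RPS12, a protein of the small subunit head, had the highest FPKM, at 810 in hypoxia with oxamate, 629 in hypoxia and 922 in normoxia. RPL41, a very short basic peptide of the large subunit, had 667, 575 and 674 FPKM. At the other end, RPL36A had 0.728, 0.762 and 1.37 FPKM, RPS10 had 0.876, 1.09 and 1.65, and RPL17, which lies at the peptide exit tunnel, had 2.29, 2.38 and 4.46. These 3 genes share 77.6%, 77.0% and 91.0% of their shortest principal transcript with the exons of an annotated readthrough gene (RPL36A-HNRNPH2, RPS10-NUDT3 and RPL17-C18orf32), and all 3 readthrough genes were listed at 0 in every library. In all, 7 core members shared more than 50% of that transcript with another gene, among them those 3, RPL26 (59.0%), RPL38 (57.8%) and RPL10 (55.9%). The order of the 77 FPKM values was nearly the same in every library (Spearman rho 0.98 to 0.99 between pairs of libraries, as a description, since the values share gene lengths).

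The deposited lengths enter these levels. FPKM divides by the summed length of all exons of a gene, which for the core members had a median of 3.27 times the length of the shortest principal transcript, with a range from 1.01 times for RPS12 to 33.2 times for RPS29. RPS29, a zinc-binding protein of the small subunit, shows the effect, with 15.6, 11.5 and 11.3 FPKM in hypoxia with oxamate, hypoxia and normoxia but 523, 384 and 375 CPM per kilobase of that transcript. By the transcript measure RPL41 was highest, at 1593, 1365 and 1584 CPM per kilobase. Ratios between libraries do not depend on gene length in this way, because it cancels.

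**Figure D1:**
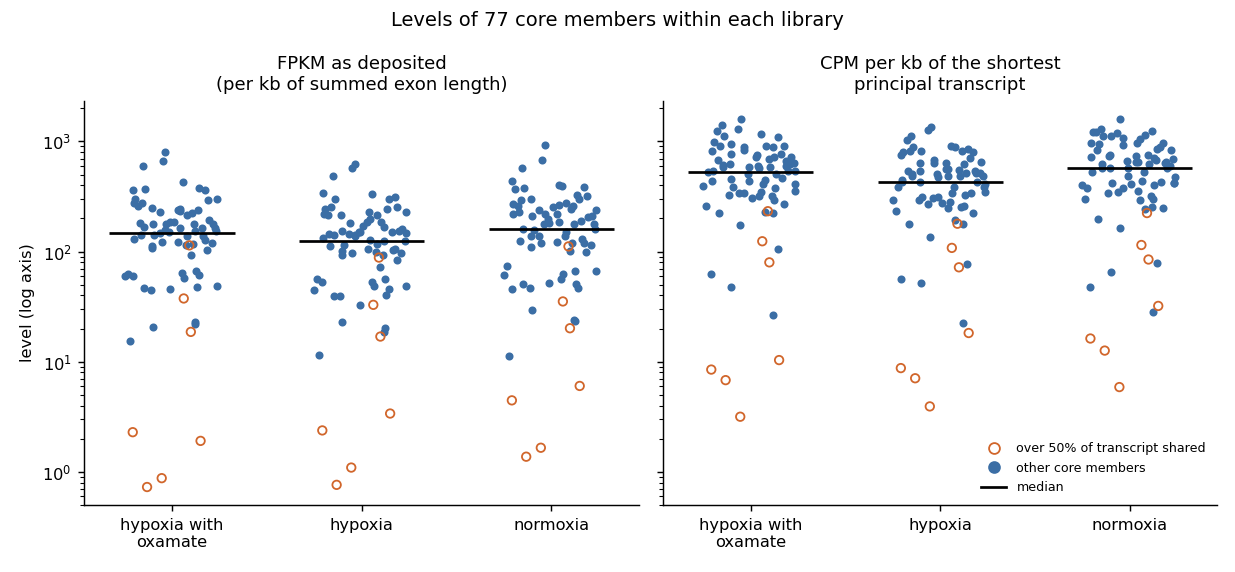
Levels of the 77 core members in hypoxia with oxamate, hypoxia and normoxia on log axes, as deposited FPKM (left) and as CPM per kilobase of the shortest principal transcript (right), 1 point per gene, with black lines at the medians. Open points are the 7 genes that share more than 50% of that transcript with exons of another gene, and 4 of them lie apart below the rest, under 7 FPKM in every library.

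The annotated starts of the members show the TOP tract directly. In the RefSeq promoter table (GRCh38.p14), a C at the annotated start followed by at least 4 further C or T, read on the strand of the gene, was present in 1429 of 35116 promoters (4.07%). Among promoters of core members it was present in 46 of 77 (59.7%), and 46 of the 62 core genes matched (74.2%) had it at an annotated start. Of the 5 paralogs matched, RPL22L1 had it. The members not matched included RPL3L, RPL39L, RPS2, RPL23A, RPL7, RPL8, RPL30, RPS15A, RPS20, RPL5, RPL23 and RPL37. The windows that follow run from 30 bases before the annotated start to the 20 bases from it, with the pyrimidine run at the start in capitals. They show the stalk protein gene RPLP0, RPS12 with the highest FPKM, RPL39 with a long run, RPS29 without one, and the pairs RPS27 with RPS27L and RPL22 with RPL22L1.
RPLP0: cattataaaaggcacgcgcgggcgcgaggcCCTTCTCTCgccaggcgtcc
RPS12: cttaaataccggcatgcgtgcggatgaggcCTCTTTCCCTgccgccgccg
RPL39: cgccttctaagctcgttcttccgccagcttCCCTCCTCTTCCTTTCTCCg
RPS29: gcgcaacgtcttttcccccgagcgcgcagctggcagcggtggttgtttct
RPS27L: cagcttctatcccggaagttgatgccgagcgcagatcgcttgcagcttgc
RPS27: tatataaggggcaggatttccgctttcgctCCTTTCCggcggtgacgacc
RPL22L1: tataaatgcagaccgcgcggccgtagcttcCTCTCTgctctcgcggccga
RPL22: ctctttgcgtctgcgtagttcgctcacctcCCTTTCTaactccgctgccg
The windows on the plus strand are chr6:132814539-132814588 (RPS12) and chr1:153990732-153990781 (RPS27). Those on the minus strand are chr12:120201092-120201141 (RPLP0), chrX:119791611-119791660 (RPL39), chr14:49598691-49598740 (RPS29), chr15:63157458-63157507 (RPS27L), chr3:170870176-170870225 (RPL22L1) and chr1:6199576-6199625 (RPL22). A match describes the letters at an annotated start and is not evidence that the start is used in these cells. Only the exact annotated base was searched, so a gene without a match may still have a run nearby or at another start.

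The first comparison asks how the ribosomal protein messages differed between hypoxia and normoxia. Core members were lower in hypoxia as a body, by a small and rather even amount. Their median log2 ratio was -0.33, a ratio of 0.793, against -0.11 for all 13554 measured genes and -0.16 for measured protein-coding genes. The ratio was under 1 for 73 of the 77 (56.7% of all measured genes) and over 1 for 4 (43.3%). The whole interval lay under 1 for 71 (46.9%) and over 1 for 2 (33.3%). The spread among members was narrow, with an interquartile range of 0.23 on the log2 scale, where all measured genes had 0.91. Accordingly 0 core members were at least 2-fold lower (8.07%) and 0 at least 2-fold higher (10.8%), while 10 were at least 1.5-fold lower (21.9%) and 0 at least 1.5-fold higher (18.7%). Most core members had far more fragments than the minimum for a measured gene, and counting intervals narrow as fragments rise. The measured genes were not matched to them in fragments, here or in the later comparisons. How far fragment number accounts for the contrasts in intervals, spread and size was not tested. The subunits had similar medians, -0.34 (small) and -0.33 (large).

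Across 11841 measured protein-coding genes the log2 ratio of hypoxia to normoxia went with summed exon length (Spearman rho 0.26, as a description, over points that share both libraries), and the core members had a median summed exon length of 3228 bases. With this length trend removed the core median was -0.24, and its distance from the median of all measured genes was -0.10, where it was -0.22 with the trend in place. Scaling by total fragments moved the median of all genes to 0.04 and the core median to -0.18. Their distance stayed at -0.22 by construction, since a change of scaling shifts every log2 ratio by the same amount.

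**Figure D2:**
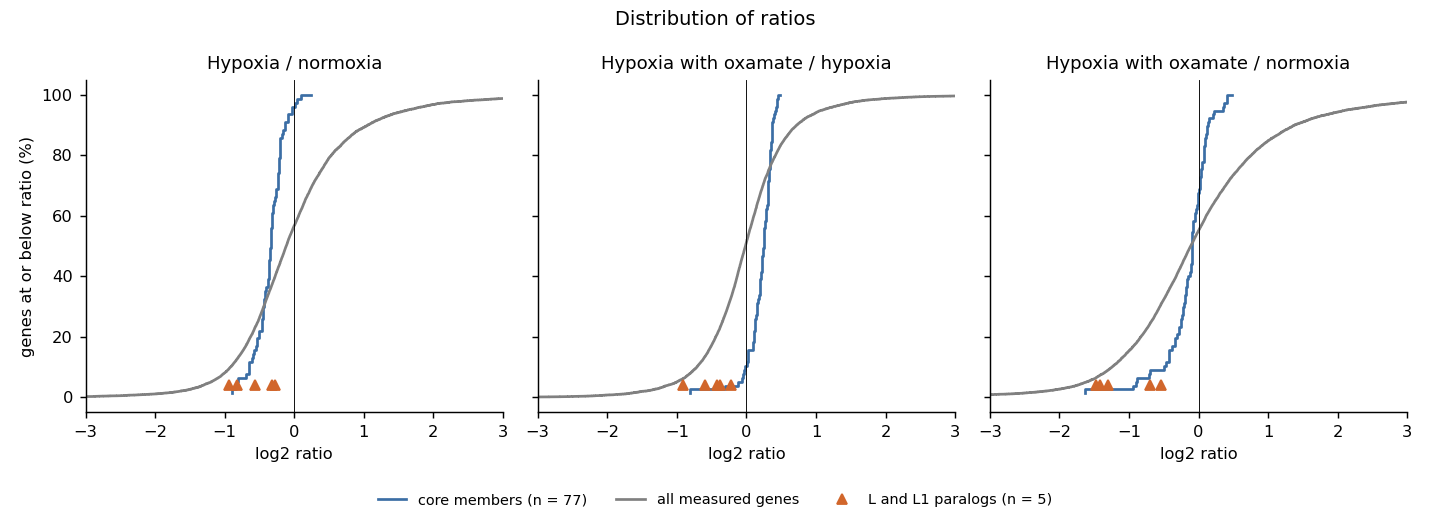
Cumulative distribution of log2 ratios in the 3 comparisons for the 77 core members (blue) and all measured genes (grey), with the 5 measured paralogs as orange triangles placed near the axis. The core curve is steep, left of 0 for most in hypoxia against normoxia and right of 0 for most in hypoxia with oxamate against hypoxia, while the triangles lie left of 0 in every panel.

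The 10 core members at least 1.5-fold lower in hypoxia included RPL17, RPL36A, RPS2, RPSA, RPL14, RPS27A, RPL19 and RPLP0. RPS2, which lines the messenger entry channel of the small subunit (chr16:1962058-1964841, minus strand, hg38), had 592 CPM in hypoxia with oxamate, 552 in hypoxia and 963 in normoxia, and was 1.74-fold lower in hypoxia than in normoxia (interval 1.71 to 1.78). RPSA, a small subunit protein also known as the laminin receptor precursor (chr3:39406716-39412542, plus strand), had 516, 524 and 846 CPM and was 1.61-fold lower (1.58 to 1.65). For both genes the cultures in 1% oxygen were close to each other and normoxia stood above them. Both genes have annotated pseudogenes, and the 24 annotated pseudogenes of RPS2 held 3412, 3523 and 4662 fragments beside 14802, 15287 and 24899 in RPS2 itself.

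RPL17 and RPL36A had the lowest ratios among the core members, but on few fragments. RPL17 had 142 fragments in hypoxia with oxamate, 162 in hypoxia and 281 in normoxia, and was 1.86-fold lower in hypoxia than in normoxia (1.52 to 2.27). RPL36A, a large subunit protein, had 73, 84 and 140 fragments and was 1.78-fold lower (1.35 to 2.37). The assignment of these fragments is uncertain because most of each transcript overlaps another gene. When the fragments of annotated pseudogenes were added, the log2 ratio of RPL17 became -0.38 in place of -0.89, and that of RPL36A -0.30 in place of -0.83.

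By role, the stalk proteins that recruit translation factors were lower in hypoxia to differing degrees. RPLP0 had 1208 CPM in hypoxia with oxamate, 972 in hypoxia and 1471 in normoxia, a ratio of hypoxia to normoxia of 0.661 (0.650 to 0.671). RPLP1 and RPLP2, its smaller acidic partners, had ratios of 0.743 (0.724 to 0.762) and 0.775 (0.753 to 0.797). RPL5 and RPL11, which travel with 5S ribosomal RNA and, when not assembled, bind the p53 regulator MDM2, were nearer to 1, at 0.882 (0.862 to 0.902) and 0.912 (0.888 to 0.937). RPL11 had 416, 391 and 428 CPM, and its log2 ratio of -0.13 became 0.02 with scaling by total fragments and 0.05 with the length trend removed.

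RPS6, the substrate of the S6 kinases downstream of mTOR, had 753 CPM in hypoxia with oxamate, 592 in hypoxia and 729 in normoxia. Its ratio of hypoxia to normoxia was 0.812 (0.795 to 0.830), close to the median member. RPS27A, made as a fusion to ubiquitin that is cut after translation, had 540, 429 and 670 CPM and a ratio of 0.640 (0.625 to 0.655).

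At the upper end were RPL37, RPL15, RPS29, RPS27 and RPL37A, of which all but RPL15 are small zinc-binding proteins. RPL37, of the large subunit (chr5:40825262-40835222, minus strand), had 486 CPM in hypoxia with oxamate, 431 in hypoxia and 365 in normoxia, a ratio of hypoxia to normoxia of 1.18 (1.15 to 1.21). RPL15, a large subunit protein, had 1067, 1045 and 978 CPM and a ratio of 1.07 (1.05 to 1.09). RPL37 and RPL15 were the 2 core members whose whole interval lay over 1, and both kept a ratio over 1 under each scaling and with the length or GC trend removed. RPS29 had a ratio of 1.02 (0.972 to 1.08), RPS27 of 1.01 (0.975 to 1.04) and RPL37A of 0.982 (0.951 to 1.01), and the sign of these 3 log2 ratios depended on the scaling or on the length trend.

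**Figure D3:**
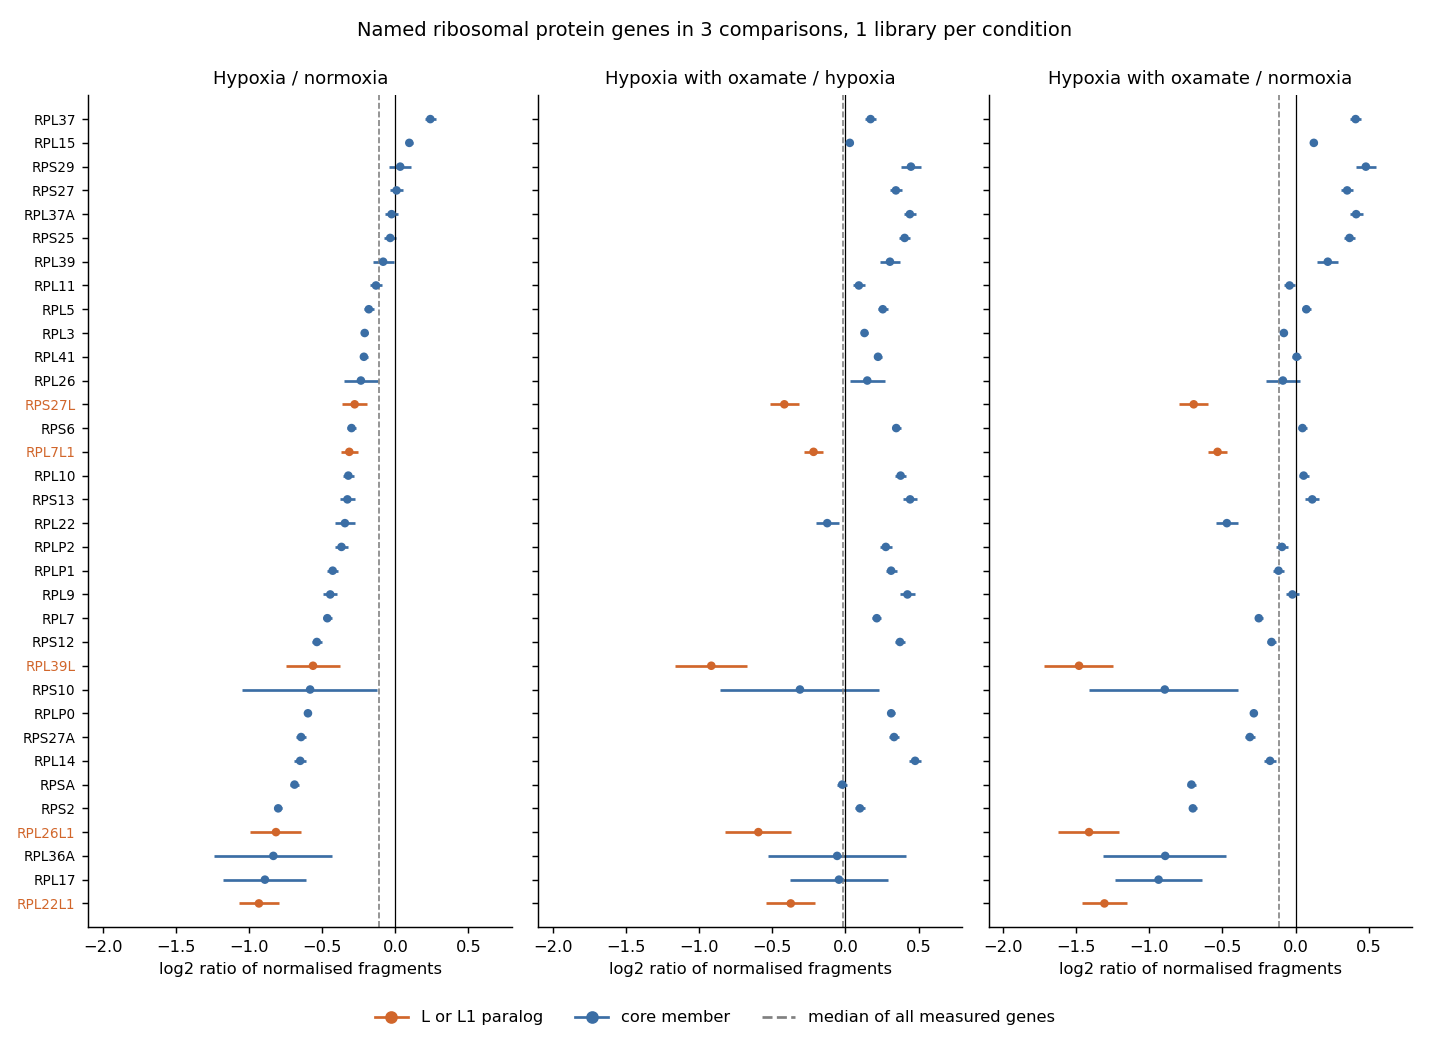
Log2 ratios of normalised fragments for 29 named core members (blue) and the 5 measured paralogs (orange) in hypoxia against normoxia, hypoxia with oxamate against hypoxia, and hypoxia with oxamate against normoxia, with 95% counting intervals and dashed lines at the median of all measured genes. Genes are ordered by the first panel, from RPL37 at 0.24 to RPL22L1 at -0.93, and the paralogs lie left of 0 in every panel.

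The second comparison asks how the same messages differed between hypoxia with oxamate and hypoxia. It shares the hypoxia library with the first, so a value that is low in that library by chance lowers the first ratio and raises the second. Core members were higher with oxamate as a body, with a median log2 ratio of 0.25, a ratio of 1.19, against -0.01 for all 13739 measured genes and -0.03 for protein-coding genes. The ratio was over 1 for 70 of the 77 (48.8% of all measured genes) and under 1 for 7 (51.2%). The whole interval lay over 1 for 67 (34.8%) and under 1 for 2 (36.2%). Members again varied little, with an interquartile range of 0.20 where all measured genes had 0.66. None was at least 2-fold higher (5.92%), at least 2-fold lower (5.07%) or at least 1.5-fold higher (13.7%), and 1 was at least 1.5-fold lower (13.8%). The small subunit had a median of 0.29 and the large subunit 0.22.

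The highest ratios came from both subunits and stayed below 1.5. RPL14, a large subunit protein, had 398 CPM in hypoxia with oxamate, 286 in hypoxia and 449 in normoxia, and a ratio of hypoxia with oxamate to hypoxia of 1.39 (1.35 to 1.43). RPS13, at the subunit interface, had 298, 220 and 276 CPM and a ratio of 1.36 (1.31 to 1.41). RPL9, a large subunit protein near the stalk base, had 297, 221 and 302 CPM and a ratio of 1.34 (1.30 to 1.39). In all 3 genes hypoxia was the lowest library. RPS29 and RPL37A, with ratios of 1.36 (1.30 to 1.43) and 1.36 (1.32 to 1.40), completed the upper 5, and for both of them normoxia was close to hypoxia.

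The role groups were on the same side. RPLP0, RPLP1 and RPLP2 had ratios of hypoxia with oxamate to hypoxia of 1.24 (1.22 to 1.26), 1.24 (1.21 to 1.28) and 1.21 (1.18 to 1.25). RPL5 had 1.19 (1.17 to 1.22), RPL11 had 1.07 (1.04 to 1.09), RPS6 had 1.27 (1.25 to 1.30) and RPS27A had 1.26 (1.23 to 1.29). RPS2 and RPSA differed little between the cultures in 1% oxygen, at 1.07 (1.05 to 1.10) and 0.985 (0.962 to 1.01).

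Few core members were lower with oxamate than in hypoxia. RPL22, a large subunit protein that also binds viral small RNAs, had 98.2 CPM with oxamate and 107 in hypoxia, a ratio of 0.917 (0.869 to 0.968). It was 1 of the 2 core members whose whole interval lay under 1. RPS10, RPL36A and RPL17 had ratios of 0.806 (0.551 to 1.17), 0.961 (0.693 to 1.33) and 0.970 (0.769 to 1.22), intervals too wide to give a direction at this depth.

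The remaining comparison sets hypoxia with oxamate directly against normoxia. It shares each of its libraries with one of the other comparisons. Core members as a body were close to their normoxia level, with a median log2 ratio of -0.09, a ratio of 0.938, against -0.11 for all 13597 measured genes. The direction of this median depended on the processing, since it was 0.02 with the length trend removed and within 0.01 of 0 with scaling by total fragments. The ratio was under 1 for 51 (55% of all measured genes) and over 1 for 26 (45%). The whole interval lay under 1 for 45 (47.1%) and over 1 for 22 (37.3%). Past 2-fold, 1 member was lower (15.3%) and 0 were higher (15.4%). At 1.5-fold, 6 were lower (28.7%) and 0 higher (24.3%), and the 6 included RPL17, RPS10, RPL36A, RPSA and RPS2.

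In hypoxia with oxamate against normoxia, RPL17, RPS10 and RPL36A were 1.91-fold (1.56 to 2.36), 1.86-fold (1.31 to 2.66) and 1.85-fold (1.39 to 2.50) lower, again on few fragments with shared transcripts. RPSA at 1.64-fold lower (1.60 to 1.67) and RPS2 at 1.63-fold lower (1.59 to 1.66) have at least 12920 fragments in each library and share no exon bases of their shortest principal transcript with another gene. At the upper end RPS29 had a ratio of 1.40 (1.33 to 1.47), RPL37A and RPL37 each of 1.33 (1.29 to 1.37), RPS25 of 1.29 (1.26 to 1.33) and RPS27 of 1.28 (1.24 to 1.32). RPS25, a small subunit protein needed by some viral internal ribosome entry sites, had 450 CPM with oxamate, 340 in hypoxia and 348 in normoxia.

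Several of the genes with high ratios have short coding sequences. A length of 300 bases, chosen after the values were seen, sets apart 9 core members (RPL37, RPL37A, RPL38, RPL39, RPL41, RPS21, RPS27, RPS28 and RPS29). In hypoxia against normoxia their median log2 ratio was -0.08, and that of the 68 longer members was -0.36. In hypoxia with oxamate against hypoxia the medians were 0.34 for the 9 and 0.24 for the 68. In hypoxia with oxamate against normoxia they were 0.22 and -0.10, and all 9 short members were above 0, from 0.01 (RPL41) to 0.48 (RPS29), while 17 of the 68 were. Across the 77 core members the log2 ratio of hypoxia to normoxia went down with coding length (Spearman rho -0.32), whereas across 11841 protein-coding genes it went up (0.21). The points of each correlation share 2 libraries.

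**Figure D4:**
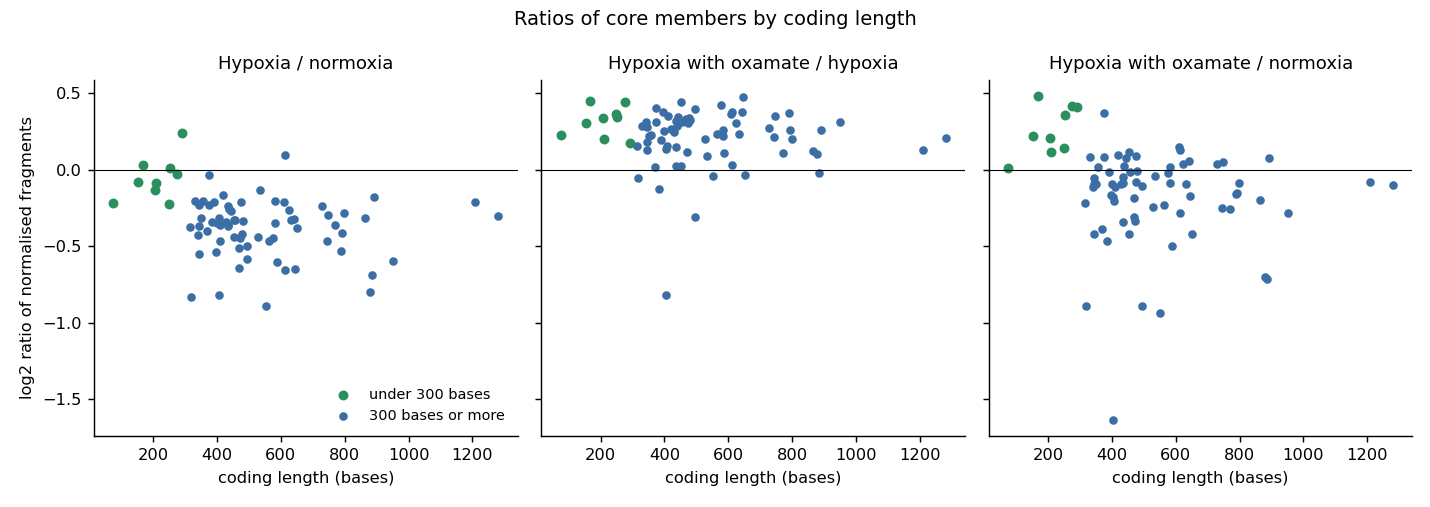
Log2 ratio of each core member against the length of its coding sequence in bases, for hypoxia against normoxia, hypoxia with oxamate against hypoxia, and hypoxia with oxamate against normoxia, with the 9 members under 300 bases in green. The green points lie toward the top of the left and right panels, and in the right panel they reach 0.48 (RPS29).

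Core genes with and without a TOP tract at an annotated start had similar medians in hypoxia against normoxia, at -0.33 for the 46 with it and -0.35 for the 16 without. In hypoxia with oxamate against hypoxia the medians were 0.29 with the tract and 0.13 without, and in hypoxia with oxamate against normoxia -0.09 and -0.17. The ranges overlapped in every comparison, and in hypoxia with oxamate against hypoxia they ran from -0.31 to 0.48 with the tract and from -0.04 to 0.45 without. RPS29, whose printed window has no run at the start, was among the highest members in all 3 comparisons. The 16 genes lack a match at the exact annotated base, which does not show that their messages lack a TOP tract.

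The L and L1 paralogs were lower with oxamate, where most core members were higher. Of the 7, 5 were measured, and in each of the 3 comparisons all 5 were lower, a direction they kept under every scaling and with the length or GC trend removed. Of all measured genes, 56.7% had a ratio under 1 in hypoxia against normoxia, 51.2% in hypoxia with oxamate against hypoxia and 55% in hypoxia with oxamate against normoxia. The paralogs' median log2 ratio was -0.56 in hypoxia against normoxia, -0.42 in hypoxia with oxamate against hypoxia, and -1.31 in hypoxia with oxamate against normoxia. In the last comparison 3 were at least 2-fold lower, against 15.3% of all measured genes, and 4 at least 1.5-fold lower, against 28.7%. Together the 7 paralogs took 0.0231% of fragments in hypoxia with oxamate, 0.0303% in hypoxia and 0.0363% in normoxia.

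RPL39L, a paralog of RPL39 known for its high expression in testis and in some tumours, had 201 fragments in hypoxia with oxamate, 420 in hypoxia and 580 in normoxia. It was 1.48-fold lower in hypoxia than in normoxia (1.30 to 1.68), 1.89-fold lower in hypoxia with oxamate than in hypoxia (1.59 to 2.25), and 2.79-fold lower in hypoxia with oxamate than in normoxia (2.37 to 3.29). RPL39 itself, which lines the peptide exit tunnel, had 138, 112 and 119 CPM in hypoxia with oxamate, hypoxia and normoxia, and its ratio of hypoxia with oxamate to normoxia was 1.17 (1.11 to 1.22). The paralog held 5.48% of the fragments of the pair in hypoxia with oxamate (Wilson interval 4.79 to 6.27), 11.9% in hypoxia (10.9 to 13.0) and 15.9% in normoxia (14.7 to 17.1). Here and for the later pairs, the share counts fragments without correction for gene length. It serves to compare libraries, not the levels of the genes of a pair. Between the cultures in 1% oxygen the ratio of RPL39 was 1.23 (1.18 to 1.30), so paralog and core gene lay on opposite sides of 1.

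The coding sequences of the pair are close, which bears on how fragments could be assigned. Over 153 aligned bases RPL39L and RPL39 differ at 8, an identity of 94.8%. The GENCODE 29 coding sequences (GRCh38, spliced, without the stop codon) are shown with the differing bases in capitals. RPL39L is spliced from within chr3:187120948-187180908 and RPL39 from within chrX:119786504-119791630, both on the minus strand.
RPL39L: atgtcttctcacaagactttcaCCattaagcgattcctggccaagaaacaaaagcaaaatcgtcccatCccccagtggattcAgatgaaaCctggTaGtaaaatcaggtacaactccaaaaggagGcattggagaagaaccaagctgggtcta
RPL39: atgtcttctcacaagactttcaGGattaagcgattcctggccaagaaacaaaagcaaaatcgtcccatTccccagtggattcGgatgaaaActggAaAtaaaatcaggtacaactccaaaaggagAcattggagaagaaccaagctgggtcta
A fragment inside a shared stretch of this pair could be assigned to either gene, and no rule for such fragments is stated in the labels. RPL39 also has 18 annotated pseudogenes, which held 679, 667 and 613 fragments in hypoxia with oxamate, hypoxia and normoxia.

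RPL22L1 and RPL26L1 were also lower, with less similar partners. RPL22L1, whose coding sequence is 66.6% identical to that of RPL22, had 489 fragments in hypoxia with oxamate, 701 in hypoxia and 1251 in normoxia. It was 1.91-fold lower in hypoxia than in normoxia (1.74 to 2.10), the lowest log2 ratio of any measured member, and 2.47-fold lower in hypoxia with oxamate than in normoxia (2.23 to 2.75). RPL22, which in mice represses RPL22L1, had 98.2, 107 and 136 CPM. The share of RPL22L1 in the pair was 16.6% in hypoxia with oxamate (15.3 to 18.0), 19.1% in hypoxia (17.9 to 20.4) and 26.2% in normoxia (25.0 to 27.5).

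RPL26L1, with 84.1% coding identity to RPL26, had 262 fragments in hypoxia with oxamate, 438 in hypoxia and 721 in normoxia. It was 1.76-fold lower in hypoxia than in normoxia (1.56 to 1.99) and 2.66-fold lower in hypoxia with oxamate than in normoxia (2.31 to 3.08). RPL26, which also binds the p53 message, had 46.7, 42.1 and 49.6 CPM. Its ratio was 0.849 in hypoxia against normoxia (0.784 to 0.920) and 1.11 in hypoxia with oxamate against hypoxia (1.02 to 1.20). In hypoxia with oxamate against normoxia it was 0.942 (0.869 to 1.02). The paralog made up 18.3% of the fragments of the pair in hypoxia with oxamate (16.4 to 20.4), 27.3% in hypoxia (25.2 to 29.6) and 36.0% in normoxia (33.9 to 38.1). That share rests on RPL26, however, 59.0% of whose transcript overlaps another gene.

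RPS27L, a target of p53 with 77.8% coding identity to RPS27, had 54.5 CPM in hypoxia with oxamate, 72.8 in hypoxia and 88.3 in normoxia. It was 1.21-fold lower in hypoxia than in normoxia (1.14 to 1.29), 1.34-fold lower in hypoxia with oxamate than in hypoxia (1.25 to 1.43) and 1.62-fold lower in hypoxia with oxamate than in normoxia (1.51 to 1.73). RPS27 had 393, 309 and 308 CPM, so it was highest where RPS27L was lowest. RPS27L made up 12.2% of the fragments of the pair in hypoxia with oxamate (11.6 to 12.8), 19.1% in hypoxia (18.3 to 19.8) and 22.3% in normoxia (21.5 to 23.1). Its summed exon length is 8825 bases against 1028 for RPS27, so per length it was far lower. In the same order RPS27L had 6.11, 8.22 and 10.1 FPKM, and RPS27 had 378, 299 and 301.

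RPL7L1, a nucleolar protein with a role in ribosome assembly, was the paralog with the most fragments, 3420 in hypoxia with oxamate, 4401 in hypoxia and 5117 in normoxia. Its ratio was 0.804 in hypoxia against normoxia (0.772 to 0.837), 0.860 in hypoxia with oxamate against hypoxia (0.822 to 0.899) and 0.691 in hypoxia with oxamate against normoxia (0.662 to 0.722). RPL7 had 682, 588 and 812 CPM, and the share of RPL7L1 in the pair was highest in hypoxia, at 16.7% with oxamate, 21.3% in hypoxia and 19.6% in normoxia. RPL3L, a striated muscle form of RPL3, had 0, 1 and 3 fragments, and RPL10L, a testis form of RPL10, had 0 in every library, so neither was measured. Their core partners were abundant, RPL3 with 1302, 1189 and 1376 CPM and RPL10 with 530, 408 and 510 CPM.

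**Figure D5:**
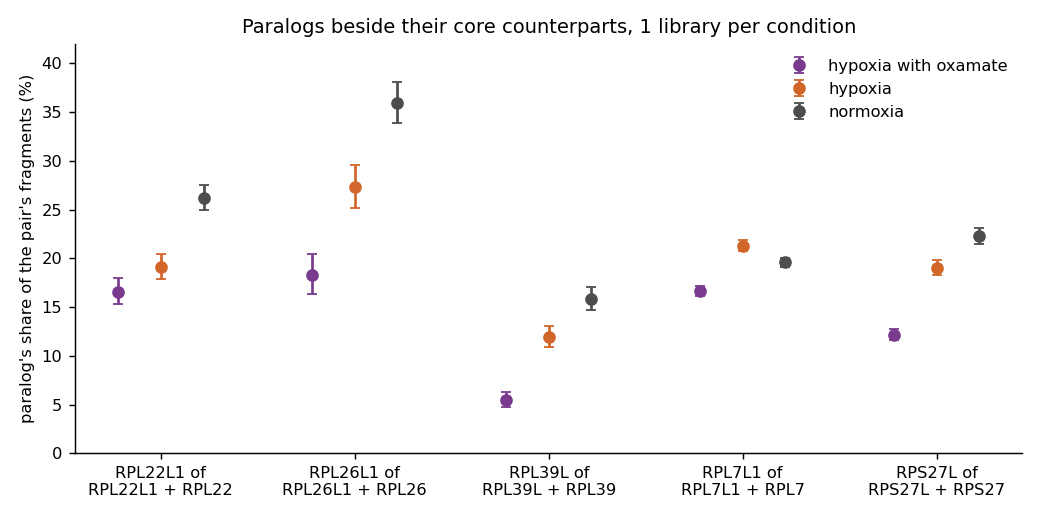
Share of each pair's fragments held by the paralog (percent) in hypoxia with oxamate (purple), hypoxia (orange) and normoxia (dark grey), 1 library per condition, with 95% Wilson intervals for counting error. Shares are not corrected for gene length. The oxamate point is the lowest of each pair, and for RPL39L it is at 5.48% against 15.9% in normoxia.

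A list of 22 further translation genes, most of them known for TOP tracts, was described beside the ribosomal proteins. EEF1G was listed at 0 in every library and the other 21 were measured. Their median log2 ratio was -0.24 in hypoxia against normoxia, with 0 at least 2-fold either way, where 8.07% of all measured genes were that much lower and 10.8% higher. It was 0.16 in hypoxia with oxamate against hypoxia, again with 0 past 2-fold, where the shares of all measured genes were 5.07% lower and 5.92% higher. In hypoxia with oxamate against normoxia it was -0.23, with 1 at least 2-fold lower (NPM1) and 0 higher, against 15.3% and 15.4% of all measured genes. FAU, which encodes a ribosomal protein fused to a ubiquitin-like protein, had a ratio of hypoxia to normoxia of 0.621 and of hypoxia with oxamate to hypoxia of 1.18. EEF1A1, the elongation factor that delivers transfer RNA, had ratios of 0.976 and 1.39 in those comparisons. In hypoxia with oxamate against hypoxia the ratio was over 1 for 18 of the 21 (48.8% of all measured genes). It was under 1 for 3 (51.2%), namely HNRNPA1 at 0.648, NPM1 at 0.818 and EIF3A at 0.892. The 7 listed hosts of small nucleolar RNAs, such as GAS5, had medians of -0.49, 0.36 and -0.16 in hypoxia against normoxia, hypoxia with oxamate against hypoxia, and hypoxia with oxamate against normoxia, and 0 of them was past 2-fold in any of the 3, beside the same shares of all measured genes.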

How the data were processed

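Polyadenylated RNA of 3 Hep3B cultures was sequenced, 1 library each. The authors deposited 1 table per library with gene coordinates, summed exon lengths and FPKM, per the file headers. Build hg38 and, among other tools, featureCounts 1.5.0-p3, HISAT2 2.0.5 and StringTie 1.3.3b are listed in the submitters' processing notes without roles. No source used here gives strand or multi-mapping settings, so antisense overlaps and near-identical copies are uncertain.

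Multiplying FPKM by gene length and dividing by a constant of the library gave whole numbers (100% of nonzero values within 0.01), which served as fragments. Library totals were adjusted with a trimmed mean of M values (30% and 5% trims, 21987 genes with at least 10 fragments), with factors of 1.01 (hypoxia with oxamate), 1.05 (hypoxia) and 0.943 (normoxia), using scipy 1.17.1, statsmodels 0.14.6, pandas 2.3.3 and numpy 2.4.6 under Python 3.11.15. The FPKM values imply 1.02, 1.06 and 0.938. The procedure was tested on simulated counts with counting error only and a small part of the genes changed. That setting cannot show how it performs with culture-to-culture spread or with many genes changed. Size rules of 2-fold and 1.5-fold needed at least 50 fragments in the higher library. The labels name no molecular identifiers, so fragments may be copies of 1 molecule and the intervals cover counting error only.

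Gene types, transcripts, coding sequences and exon overlaps on either strand came from GENCODE 29 (58356 of 61533 identifiers matched), and start windows from RefSeq. Pseudogenes were assigned to members by symbol. Members, lists and rules were chosen with earlier results of these data known. Genes named were every paralog and its partner, the 5 highest and 5 lowest core members per comparison, the 3 highest and 3 lowest FPKM, core members past 2-fold and 8 genes by role, and a few of these are not reported here. Alternatives covered scaling, filters, length and GC trends, pseudogenes and exon overlap.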

Additional observations from a re-analysis of the deposited data

How the results depend on the processing

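With 1 library per condition the limits are those of single cultures: no replicate was left out, counting intervals say nothing of culture-to-culture spread, and differences near the interval width are not detectable at this depth. No paired analysis was possible because each condition has 1 library. Of 183 alternatives for the main results, 161 stayed within their limits, 20 moved and 2 reversed. The 161 include settings that could not alter a result. Every core member passes the minimum of 50 fragments, so lowering or dropping that minimum left the core counts and medians as they were. Counts of 0 that stayed at 0 are also among the 161. With scaling by total fragments the core median was -0.18 in hypoxia against normoxia, 0.19 in hypoxia with oxamate against hypoxia and reversed to 0.0025 in hypoxia with oxamate against normoxia, and 4 core members were at least 1.5-fold lower in hypoxia than in normoxia. With the length trend removed the median was -0.24 in hypoxia against normoxia and reversed to 0.018 in hypoxia with oxamate against normoxia. A trimmed mean without ribosomal protein and mitochondrial genes gave -0.29 in hypoxia against normoxia. The cause of these moves was not tested. Among the 27 core members with no exon overlap the median was -0.38 in hypoxia against normoxia with 4 at least 1.5-fold lower. In hypoxia with oxamate against hypoxia, 0 of these 27 were at least 1.5-fold lower. In hypoxia with oxamate against normoxia, 0 were lower at 1.5-fold or 2-fold. These counts of 0 hold by construction, since each core member past those limits has exon overlap and is left out. In hypoxia with oxamate against normoxia the members left out include RPL17, RPL36A, RPS10, RPSA and RPS2. Among the 70 with at most 50% of the transcript shared, a limit chosen after seeing the data, these counts were 0, 2 and 0, and with the whole interval required 0 were at least 1.5-fold lower in hypoxia with oxamate against hypoxia. The core share in hypoxia with oxamate, hypoxia and normoxia was 4.08%, 3.55% and 4.15% without mitochondrial genes, and 3.92%, 3.46% and 3.92% with pseudogenes added.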

Other observations

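Annotated pseudogenes of the core members held few fragments in sum. Of 1284 listed, 357 had a fragment in hypoxia with oxamate, 356 in hypoxia and 269 in normoxia. They took 0.129%, 0.112% and 0.119% of fragments in the same order, against 3.79%, 3.35% and 3.80% for the core members. The pseudogenes of RPL10 held 3569, 2816 and 3238 fragments beside 13255, 11288 and 13185 in RPL10, and those of RPL7 held 3836, 3604 and 4545 beside 17067, 16275 and 21000 in RPL7. RPL36AL, a relative of RPL36A whose symbol falls outside the rule for members, had 117, 115 and 141 FPKM in hypoxia with oxamate, hypoxia and normoxia, where RPL36A had 0.728, 0.762 and 1.37 FPKM.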
